A study of Arabidopsis thaliana with 9 samples.

Results

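Seedlings of the Arabidopsis thaliana 2cpab mutant that carried no green pigment were compared with wild-type seedlings across the whole transcriptome. The members of this comparison are 6 of the 9 libraries of the series, taken by their labels: 3 albino 2cpab libraries and 3 Col-0 wild-type libraries. The other 3 libraries, from green 2cpab seedlings, served in the estimate of the spread and as a side-by-side reference. All seedlings were 6 days old, had been lit without a dark period at 125 µE m-2 s-1, and had grown on MS medium with 0.5% sucrose, so sugar was supplied to every genotype. The mutant name joins 2CPA and 2CPB, a pair of nuclear genes for the 2-Cys peroxiredoxins of the chloroplast. No allele and no number of pooled seedlings is given in the labels, and nothing in them says that replicates were separate cultures; the p-values therefore reflect only the scatter among these libraries, part of which may be technical. The albino group was chosen by its colour within the mutant, so genotype and pigment cannot be told apart in the comparison with the wild type.

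A seedling turns its proplastids into chloroplasts in the light, and most chloroplast proteins are encoded in the nucleus, made in the cytosol and imported through the TOC and TIC complexes of the envelope. The plastid genome encodes core subunits of the photosystems, of rubisco and of the plastid ribosome, and in plants whose plastids do not develop the nuclear genes of photosynthesis are typically transcribed less. Peroxiredoxins of the 2-Cys type reduce hydrogen peroxide in the stroma and take electrons from thioredoxin-type reductases. Before photosynthesis starts, a seedling lives on seed oil, which peroxisomes oxidise and the glyoxylate cycle converts towards sugar.

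Levels are given as scaled FPKM, which are fragments normalised to transcript length and library size, multiplied by 1 factor per library that sets the 75th percentile to the same value (log2 of 3.70). Fold changes are differences of log2(scaled FPKM + 1), albino minus wild type, followed by the standard error; this scale understates changes of weakly expressed genes. A gene is called higher or lower at a Benjamini-Hochberg adjusted p under 0.05 from limma, fitted on the 19731 genes that reached a scaled FPKM of 1 in 3 or more of the 9 libraries. The deposited table holds no read counts and absolute depth is unknown; depths relative to each other, read from the steps of low values, ran from 0.868 to 1.15, and 22926 to 23963 genes per library were above 0. In whole seedlings, fewer cells of a type and less RNA per cell cannot be told apart.

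RNA levels differed between albino and wild-type seedlings for 8581 of the 19731 tested genes (43.5%). Of these 4613 were higher (23.4%) and 3968 lower (20.1%) in albino seedlings. Under the deposited scaling, larger changes were mostly decreases. At least 2-fold, 912 genes were higher (4.62%) and 1527 lower (7.74%); at least 4-fold, 162 (0.821%) and 414 (2.1%); at least 8-fold, 38 (0.193%) and 109 (0.552%). The 3 values of each group did not overlap for 11048 genes (56%), with albino seedlings above for 6225 (31.5%) and below for 4823 (24.4%). The share of lower calls rose with the mean level of the genes, from 11.8% in the fifth with the lowest levels to 33.2% in the fifth with the highest, whereas the share of higher calls lay between 21.3% and 25.95%. On chromosomes 1 to 5, 22.4% to 24.2% of tested genes were higher and 19.2% to 21.5% lower, a narrow range.

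**Figure D1:**
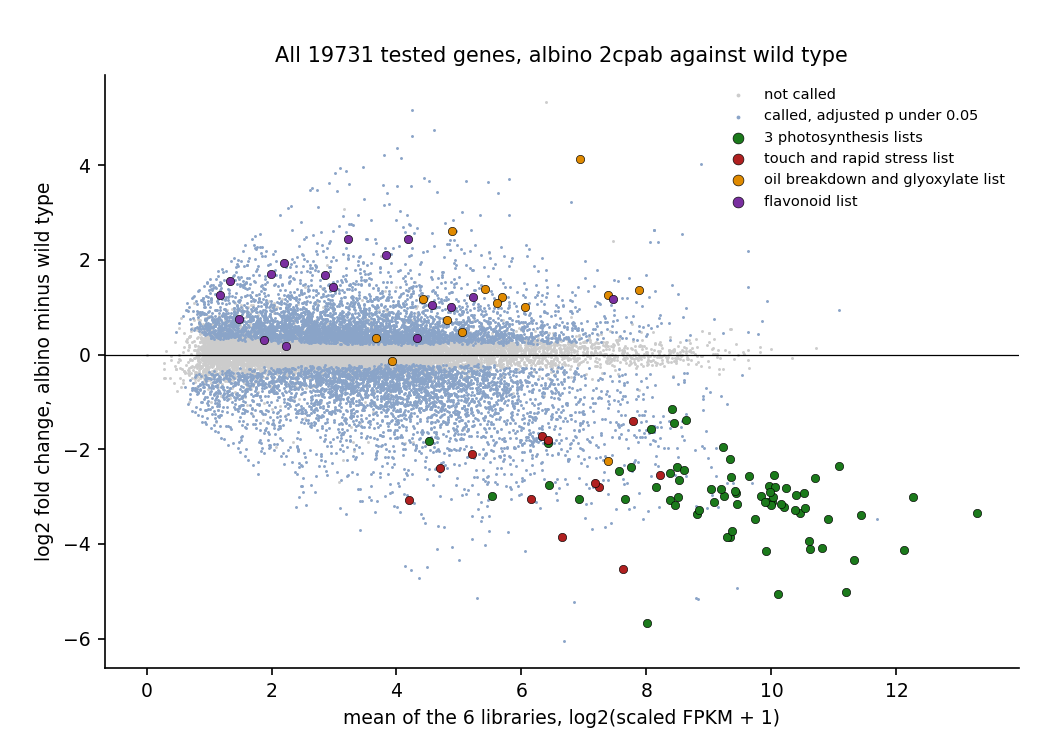
Each point is 1 of 19731 tested genes, with the mean level of the 6 libraries on the horizontal axis, log2(scaled FPKM + 1), and the log2 fold change of albino against wild-type seedlings on the vertical axis. The 70 tested genes of the 3 photosynthesis lists (green) all lie below 0 and mostly at high levels, the touch and rapid stress genes (red) also lie below 0, and most glyoxylate (orange) and flavonoid genes (purple) lie above 0.

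The split between higher and lower calls depended on how the libraries were scaled. Summed scaled FPKM was 662951 ± 38222 in the wild type and 477618 ± 5008 in albino libraries (SD, n = 3 each), with the 75th percentile held equal. When every library was instead scaled to the same sum, 12255 genes were higher (62.1%) and 2109 lower (10.7%), and the share of calls that were higher went from 53.8% to 85.3%. This scaling moved the median of all genes by 0.40 on the log2 scale (1.32-fold), from 0.07 to 0.48. All 4613 genes called higher under the deposited scaling were also called higher under the common sum, 2107 of the genes called lower were called lower under both, and 4 changed from lower to higher. Small decreases below that shift are therefore tied to the scaling, and counts under the common sum are given beside the gene groups. The 10th and 90th percentiles of the deposited log2 fold changes were -0.81 and 0.65, so the shift can also carry genes across the 2-fold limit. Counts at 2-fold and more were not repeated under the common sum, and the excess of large decreases holds for the deposited scaling only. The common sum raises albino levels relative to wild-type ones, so it can hardly remove a higher call and is no check on increases. Median-of-ratios scaling moved the median the other way, by -0.056, and gave 3771 higher and 4403 lower genes. Counts of a group are read against the shares of all genes, 23.4% higher and 20.1% lower, or 62.1% and 10.7% under the common sum. The lists were chosen with earlier results of these data known, so a count describes the members and is no independent support.

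Both targeted genes had little RNA in the albino libraries. 2CPA (AT3G11630, chr3:3672036-3674159 in TAIR10.1) stood at 988, 763 and 889.7 scaled FPKM in wild-type replicates 1 to 3 and at 24.2, 21.4 and 25.4 in albino replicates 1 to 3. 2CPB (AT5G06290, chr5:1919080-1921425) stood at 237, 174 and 188 against 1.82, 2.89 and 1.52. The groups were far apart for both, and the albino libraries were close to each other. The shared estimate of the spread includes the green libraries, of which replicate 1 held less 2CPA (35.8) than replicates 2 and 3 (267 and 256). The log2 fold changes were -5.16 ± 0.62 (adjusted p = 0.000128) for 2CPA and -6.04 ± 0.60 (adjusted p = 3.82e-05) for 2CPB, which places them 4th and 1st among the decreases of called genes whose groups did not overlap and whose higher mean was at least 5. The stromal HSP70 chaperones, which the series title names beside these enzymes, changed less. cpHSC70-2 fell by 0.94 ± 0.19 (adjusted p = 0.00335), while cpHSC70-1 was at 178, 182 and 166 against 146, 135 and 122 and did not pass (-0.38 ± 0.16, adjusted p = 0.0759). The value of cpHSC70-1 turned to 0.08 under the common sum, and it passed without green replicate 1 (adjusted p = 0.0136, over all alternatives 0.0136 to 0.899).

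Every tested gene of 3 nuclear lists (light harvesting, photosystems and electron transport, and Calvin-Benson cycle) was lower in albino seedlings. The annotation's process note of photosynthesis covered 76 tested genes, of which 69 were lower and 0 higher. The 3 lists hold 71 genes, of which 70 were tested and 70 called lower, against 20.1% of all genes, with a median log2 fold change of -3.01 and a range from -5.67 to -1.14. Under the common sum 70 were also lower, with a median of -2.55. Together they took 23.1%, 20.3% and 18.7% of summed scaled FPKM in wild-type replicates 1 to 3 and 3.40%, 2.91% and 3.11% in albino replicates 1 to 3. The wild-type share was 6.59 times the albino share on average, and no albino library came near a wild-type one (exact permutation test, two-sided p = 0.1, the smallest that 3 against 3 libraries allow, and 0.1 after Benjamini-Hochberg adjustment over 7 shares). The 100 most abundant genes of each library, whichever they were, took 26.8 ± 2.38% in the wild type and 13.2 ± 0.326% in albino seedlings (SD, n = 3 each, p = 0.1 by the same exact test).

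**Figure D2:**
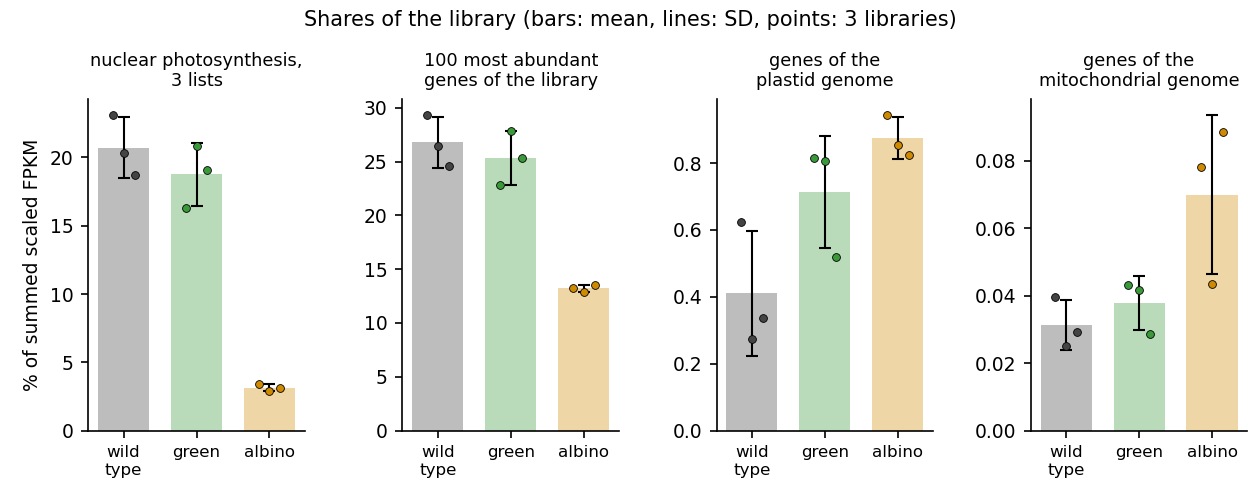
Shares of summed scaled FPKM (percent) of the nuclear photosynthesis lists, the 100 most abundant genes of each library, the plastid genome and the mitochondrial genome, with bars for the mean, lines for the SD and a point for each of 3 libraries per group. The photosynthesis share is 20.7% for wild-type, 18.8% for green and 3.14% for albino libraries, and the organelle shares are higher in albino than in wild-type libraries.

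Light-harvesting proteins bind chlorophyll and feed the photosystems. Their largest decrease was that of LHCB2.3 (AT3G27690, chr3:10255906-10257489), an antenna protein of photosystem II, which stood at 774, 386 and 346 in wild-type seedlings and at 9.65, 8.67 and 6.68 in albino seedlings. It fell by 5.67 ± 0.27 (adjusted p = 1.77e-06), and LHCB1.4 (AT2G34430, chr2:14524607-14525918) fell by 5.07 ± 0.23 (adjusted p = 1.38e-06) from 2960, 1960 and 1486 to 53.8, 66.0 and 61.5. Wild-type replicate 1 was the highest wild-type library for both, and no albino library reached the level of any wild-type one. LHCB1.1 fell by 4.34 ± 0.22 (adjusted p = 2.03e-06). At the other end of this list were the minor antenna genes LHCB4.3 (-1.83 ± 0.22, adjusted p = 0.000119) and LHCA5 (-1.86 ± 0.15, adjusted p = 1.47e-05), named after their values were seen as the smallest decreases. The LHCB1 genes are near-identical copies, so reads may be split between them. LHCB1.5, the list member that was not tested, was listed at 0 in all libraries, while AT2G08665, annotated as an antisense transcript over the same bases (chr2:14522522-14523568), stood at 7355, 5995 and 4880 in wild-type seedlings and at 548, 462 and 609.6 in albino seedlings, the fourth highest level of any wild-type gene. The libraries came from a stranded kit, but the use of strand in counting is not given in the sources used here, so these levels cannot be assigned to one of the pair.

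Photosystem and electron transport genes fell within a narrower range, from -3.48 to -1.43 over 32 of 32 genes. PSAH2 (AT1G52230, chr1:19454798-19455668), a subunit of photosystem I that docks the mobile antenna, stood at 1922, 1441 and 1350 against 147, 126 and 142 and fell by 3.48 ± 0.18 (adjusted p = 2.03e-06). PSAD2, which forms the ferredoxin docking site of photosystem I, fell by 3.37 ± 0.19 (adjusted p = 2.63e-06) and PSBQ2, of the oxygen-evolving complex of photosystem II, fell by 3.28 ± 0.16 (adjusted p = 1.99e-06). The smallest decrease was that of the minor leaf ferredoxin FD1 (-1.43 ± 0.25, adjusted p = 0.00124), named after its value was seen.

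Carbon fixation was led by the small subunits of rubisco, the enzyme that fixes carbon dioxide. RBCS2B (AT5G38420, chr5:15380907-15382071) stood at 5145, 4881 and 3554 in wild-type seedlings and at 170.3, 139 and 107 in albino seedlings and fell by 5.03 ± 0.29 (adjusted p = 2.90e-06). RBCS1B fell by 4.16 ± 0.28 (adjusted p = 5.77e-06) and RBCS3B fell by 4.13 ± 0.25 (adjusted p = 3.10e-06). These 3 genes are near-identical neighbours, so their separate values are uncertain. RBCS1A, the most abundant transcript of the wild type, stood at 18430, 19540 and 16710 against 2068, 1618 and 1672 (-3.36 ± 0.28, adjusted p = 1.40e-05), and it was still the second most abundant in albino seedlings. Carbonic anhydrase CA1 (AT3G01500, chr3:194426-198664), which interconverts carbon dioxide and bicarbonate in the stroma and stands in none of the lists, was among the 12 largest decreases at 1568, 1329 and 1138 against 54.3, 39.6 and 35.9 (-4.94 ± 0.22, adjusted p = 1.38e-06). All 19 tested genes of the Calvin-Benson list were lower, with a median of -2.995 and the transketolase TKL1 at -1.14 ± 0.14 as the smallest decrease (named after its value was seen). Photorespiration, which salvages the product of rubisco's reaction with oxygen, followed with 11 of 11 listed genes lower and a median of -2.31. Over the 26 tested genes with the process note of photorespiration, 9 were lower and 6 higher (median 0.14). The phosphatase PGLP1 of its first step stood at 118, 73.3 and 87.3 against 13.8, 10.99 and 12.5 (-2.78 ± 0.18, adjusted p = 4.43e-06), and the mitochondrial enzymes SHM1 (-2.71 ± 0.17, adjusted p = 4.19e-06) and GLDP1 (-2.63 ± 0.19, adjusted p = 7.66e-06), which turn glycine into serine, were lower by a similar amount.

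The bases before the annotated starts of 2 of these genes are shown because light-regulated plant promoters are known for G-box (CACGTG) and I-box (GATAAG) motifs. They are the 250 bases before the start in the RefSeq TAIR10.1 genome, chr3:10255656-10255905 on the plus strand for LHCB2.3 and chr5:15382072-15382321 on the minus strand for RBCS2B, written 5' to 3' towards the gene. Capitals mark matches on either strand to these motifs, to the core of the W-box (TTGAC), to the rapid stress response element (CGCGTT) and to the evening element (AAAATATCT).
LHCB2.3: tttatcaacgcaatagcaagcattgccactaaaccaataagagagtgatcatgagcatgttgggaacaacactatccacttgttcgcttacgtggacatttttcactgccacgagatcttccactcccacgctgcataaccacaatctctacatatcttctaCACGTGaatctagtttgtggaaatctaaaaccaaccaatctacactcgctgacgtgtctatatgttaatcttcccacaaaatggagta
RBCS2B: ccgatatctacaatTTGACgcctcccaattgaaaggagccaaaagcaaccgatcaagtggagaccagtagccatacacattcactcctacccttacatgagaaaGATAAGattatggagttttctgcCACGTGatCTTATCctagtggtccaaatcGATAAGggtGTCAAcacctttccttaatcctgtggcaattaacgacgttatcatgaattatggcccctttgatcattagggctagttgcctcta
LHCB2.3 has 1 match, a G-box 88 bases before the start. RBCS2B has a G-box that begins 123 bases before the start, I-box matches that begin 146, 115 and 94 bases before it, and 2 W-box cores. Among promoters of this length, 13 of 70 (18.6%) of the 3 photosynthesis lists held a G-box and 16 of 70 (22.9%) an I-box, against 1476 of 19624 (7.52%) and 2432 of 19624 (12.4%) of all tested nuclear genes. The G-box was present in 12% of promoters of genes at least 2-fold higher and 9.69% of those at least 2-fold lower. These shares are a description of letters in the window and were not tested.

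Pigment synthesis fell as well, by less than photosynthesis. Of 27 tested genes for tetrapyrroles, the family of chlorophyll and heme, 27 were lower with a median of -1.36, and 26 were lower under the common sum. GUN4 (AT3G59400, chr3:21948501-21949796), an activator of magnesium chelatase, stood at 124, 67.7 and 60.5 against 12.4, 10.9 and 9.91 and fell by 2.74 ± 0.25 (adjusted p = 2.44e-05). CRD1, of the cyclase that forms the fifth ring of chlorophyll, stood at 1373, 1083 and 1010 against 203, 168 and 156 and fell by 2.71 ± 0.18 (adjusted p = 4.74e-06). CHLH, the large subunit of magnesium chelatase, fell by 2.56 ± 0.20 (adjusted p = 1.05e-05). The groups did not overlap for any of these 3. Of 14 genes of carotenoid and plastid isoprenoid synthesis, 13 were lower with a median of -1.04; under the common sum 9 were. Phytoene synthase PSY, the entry enzyme of carotenoid synthesis, stood at 155, 95.4 and 117 against 29.7, 25.2 and 24.6 (-2.14 ± 0.18, adjusted p = 1.49e-05), and the carotene hydroxylases BCH2 (-2.08 ± 0.20, adjusted p = 3.58e-05) and BCH1 (-1.54 ± 0.19, adjusted p = 0.000138) were lower too. The member that did not pass, GGPPS11, was listed at 0 or below 0.1 in 4 of the 6 libraries, so it has no usable value.

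Among 11 tested regulators of greening and light responses, 4 were lower and 4 higher. The GARP factors GLK1 and GLK2, which activate nuclear photosynthesis genes, were lower: GLK1 (AT2G20570, chr2:8855302-8857758) stood at 22.2, 19.2 and 13.3 against 5.17, 4.66 and 3.96 (-1.76 ± 0.21, adjusted p = 0.000127) and GLK2 at 44.5, 34.8 and 25.4 against 14.04, 12.6 and 15.5 (-1.22 ± 0.21, adjusted p = 0.00122). The phytochrome-interacting factors, which hold back greening in the dark, split. PIF4 (-1.11 ± 0.14, adjusted p = 0.000162) and PIF5 (-1.17 ± 0.13, adjusted p = 7.34e-05) were lower, whereas PIF3 (0.88 ± 0.18, adjusted p = 0.00311) and PIF1 (0.57 ± 0.16, adjusted p = 0.0137) were higher. The GATA factor CGA1 (0.54 ± 0.17, adjusted p = 0.0296) and the B-box protein BBX21 (0.46 ± 0.14, adjusted p = 0.0226) were also higher. HY5, a bZIP factor that promotes light responses, was at 11.3, 16.2 and 12.99 against 16.2, 18.02 and 20.1 and did not pass (adjusted p = 0.066), nor did the GATA factor GNC (0.31 ± 0.14, adjusted p = 0.108). GUN1, a pentatricopeptide protein of plastid-to-nucleus signalling, was at 78.5, 69.6 and 66.4 against 63.9, 62.8 and 57.6 (-0.21 ± 0.09, adjusted p = 0.0756), and under the common sum it was called higher (0.25, adjusted p = 0.0430). The higher calls were fragile: there was 1 without albino replicate 1 or without albino replicate 2, and there were 2 without wild-type replicate 3. Under the common sum the list counts were 7 higher and 4 lower.

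Genes for the plastid's own gene expression fell unevenly. Of 26 nuclear genes of the plastid ribosome, 25 were lower in a narrow band, with a median of -1.52, and 25 were lower under the common sum. RPL11 (AT1G32990, chr1:11955656-11957402) stood at 283, 215 and 252 against 69.6, 66.7 and 62.5 (-1.89 ± 0.15, adjusted p = 9.94e-06), RPL12A fell by 1.82 ± 0.14 (adjusted p = 1.00e-05) and the plastid-specific protein PSRP5 fell by 1.796 ± 0.17 (adjusted p = 2.64e-05).

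Of 20 genes of plastid transcription, 8 were lower and 2 higher, with a median of -0.18; under the common sum 10 were higher and 5 lower, so the list has no direction that holds across scalings. Sigma factors direct the plastid-encoded RNA polymerase to promoters. Lower under both scalings were SIG1 (-1.43 ± 0.20, adjusted p = 0.000372), SIG2 at 71.6, 61.2 and 56.3 against 28.9, 25.1 and 22.8 (-1.27 ± 0.14, adjusted p = 7.80e-05) and SIG4 (-0.95 ± 0.21, adjusted p = 0.0052). SIG3 and SIG6 were called lower under the deposited scaling, and SIG5 was not called there. Of 11 import genes 6 were lower and 1 higher, against 2 lower and 5 higher under the common sum. TIC20-IV (AT4G03320, chr4:1464467-1466174), a second form of the inner envelope channel, was at 3.89, 4.07 and 4.92 against 14.8, 14.6 and 12.5 and rose by 1.5 ± 0.11 (adjusted p = 7.90e-06), while the main form TIC20-I was at 48.9, 52.0 and 46.9 against 27.5, 25.6 and 24.1 and fell by 0.91 ± 0.11 (adjusted p = 0.000113). The groups did not overlap for either, and both calls held under the common sum. The stromal import motor HSP93-V fell by 0.68 ± 0.12 (adjusted p = 0.00112), a call that was lost with quantile scaling (adjusted p = 0.0577).

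More plastid codes were higher than lower, unlike the nuclear genes of photosynthesis. Of 94 tested plastid codes 40 were higher and 11 lower, with a median of 0.52, and under the common sum 53 were higher and 8 lower. ATCG00065 stood at 0.693, 1.27 and 0.422 in wild-type seedlings and at 33.6, 37.4 and 22.02 in albino seedlings (4.15 ± 0.24, adjusted p = 2.63e-06), ATCG00660 at 1.33, 1.55 and 1.60 against 29.5, 31.2 and 25.2 (3.57 ± 0.31, adjusted p = 1.89e-05) and ATCG01170 at 91.1, 119 and 38.5 against 495, 493 and 425 (2.64 ± 0.35, adjusted p = 0.000259). For all 3 every albino library lay above every wild-type library. The lower count went to 7 without albino replicate 1 or 3 or wild-type replicate 3. As a share of summed scaled FPKM, plastid codes took 0.411 ± 0.187% in the wild type and 0.874 ± 0.0623% in albino seedlings (SD, n = 3 each, exact permutation p = 0.1). The total under that share was smaller in albino libraries: summed plastid levels themselves overlapped, at 1863 to 4301 scaled FPKM in the wild type and 3975 to 4521 in albino seedlings, and the mean was higher in green (4677) than in albino libraries (4176). The labels name an mRNA library kit, and plastid RNA mostly lacks stable poly(A) tails, so these values describe only what such a kit captured. Of 13 tested mitochondrial codes 4 were higher and 3 lower (7 and 3 under the common sum), and the higher count went to 1 without wild-type replicate 3 or albino replicate 3 and to 2 without wild-type replicate 2 or albino replicate 1.

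The position of the product in the cell, as the annotation notes give it for 12079 tested genes, went with different shares of decreases and increases. Of genes with a thylakoid note 80.4% were lower (225 of 280), of those with a stroma note 75.5% (203 of 269) and of those with an envelope note 65.4% (191 of 292), against 20.1% of all genes. Under the common sum these counts were 195, 144 and 133, with 47, 54 and 84 genes higher. For the wider chloroplast note the direction turned with the scaling: 1067 of 2366 genes were lower and 299 higher, but 653 lower and 986 higher under the common sum. Increases were more frequent than the 23.4% of all genes for peroxisome notes (44.95%, 49 of 109), endoplasmic reticulum notes (36.5%, 105 of 288) and vacuole notes (33.9%, 146 of 431). Mitochondrion notes had 28.1% higher and 17.75% lower, and nucleolus notes 20.4% higher and 6.28% lower. These shares are a description; 1 gene can carry several notes.

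**Figure D3:**
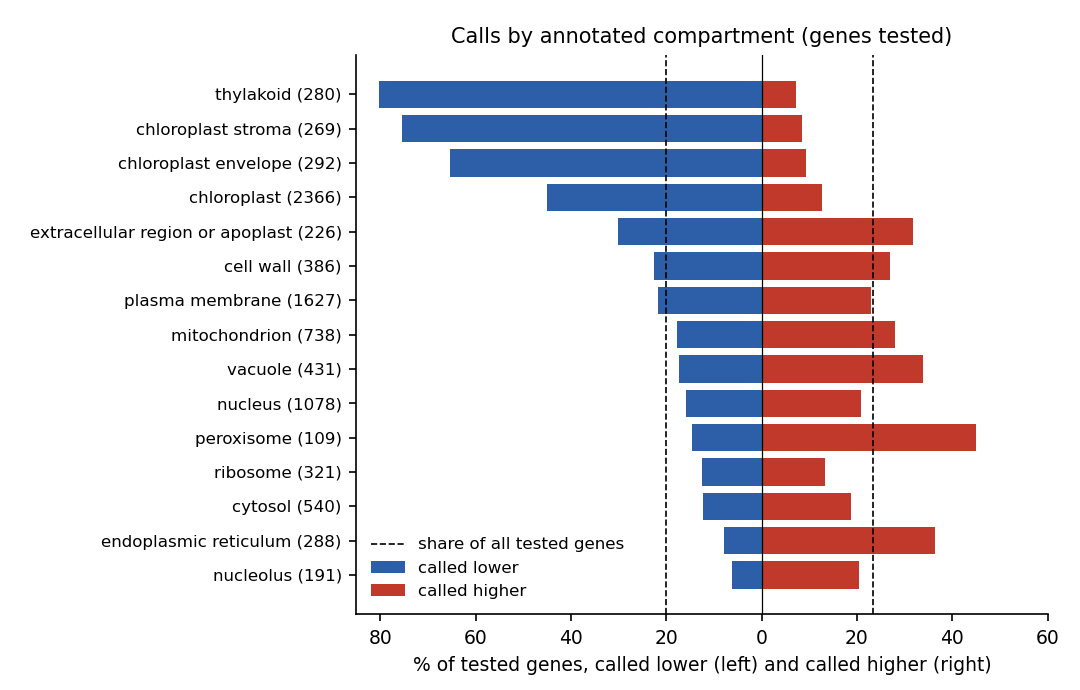
Percent of tested genes called lower (left, blue) and higher (right, red) in albino seedlings for each annotated compartment, with the number tested in brackets and dashed lines at the shares of all tested genes, 20.1% lower and 23.4% higher. The thylakoid reaches 80.4% lower, and the peroxisome, with 49 of 109 genes higher, has the longest bar on the right.

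The 12 largest increases of called genes whose groups did not overlap ranged from 3.83 to 5.16 on the log2 scale. AIG1 (AT1G33960, chr1:12346138-12348733), a GTPase-like protein first described as induced by avirulent bacteria, stood at 0, 0 and 0.0530 in wild-type seedlings and at 28.4, 32.8 and 47.4 in albino seedlings. PDF1.4 (AT1G19610, chr1:6781483-6782216), a defensin-like protein, stood at 0.795, 0.702 and 0.529 against 38.2, 34.2 and 64.9. Both were near 0 in every wild-type library and well above it in every albino library, with log2 fold changes of 5.16 ± 0.32 (adjusted p = 4.01e-06) and 4.75 ± 0.24 (adjusted p = 2.03e-06). The endonuclease ENDO2 (4.63 ± 0.25, adjusted p = 2.22e-06), the caleosin RD20, an oil-body protein induced by drought (4.36 ± 0.27, adjusted p = 3.66e-06), and the calmodulin-like protein CML41 (4.22 ± 0.27, adjusted p = 4.53e-06) followed. LTP2 (AT2G38530, chr2:16128176-16129399), a lipid transfer protein of the cell surface, was the most abundant of the 12, at 49.6, 68.7 and 41.2 against 732, 789 and 1125 (4.03 ± 0.31, adjusted p = 9.64e-06). The lipid-transfer gene AT5G55450 (3.97 ± 0.26, adjusted p = 4.53e-06) and AT4G28140 (3.87 ± 0.12, adjusted p = 3.56e-07), annotated as an integrase-type DNA-binding protein, were also among the 12, as were ICL and the plastid code ATCG00065. PNP-A, a natriuretic-like peptide, and PR2, a beta-1,3-glucanase induced in pathogen defence, were listed at 0 in all 3 wild-type libraries and at 9.51, 15.2 and 20.8 and at 8.29, 12.7 and 21.5 in the albino replicates. Among all genes, those with a lipid-transfer annotation had 28 of 67 higher and 15 lower (48 and 13 under the common sum), including AT2G37870 at 3.92, 10.4 and 3.90 against 85.7, 84.9 and 71.3 (3.65 ± 0.32, adjusted p = 1.96e-05).

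**Figure D4:**
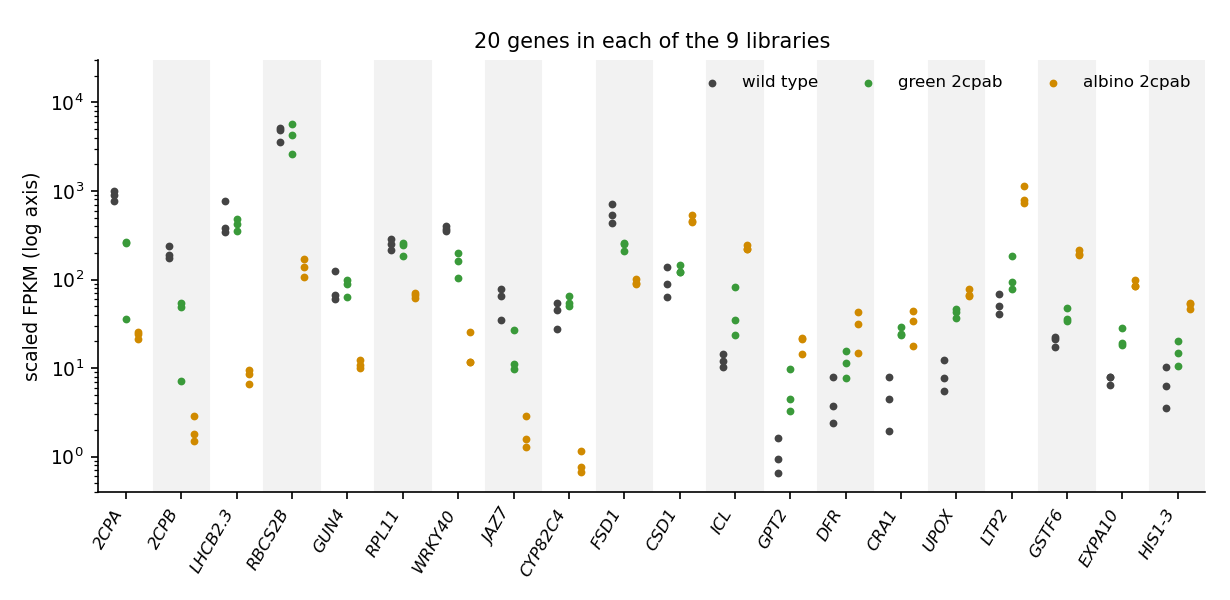
Scaled FPKM (log axis) of 20 named genes in each of the 9 libraries, with wild-type libraries in grey, green 2cpab in green and albino 2cpab in orange. For each of these genes the 3 albino points lie entirely above or entirely below the 3 wild-type points.

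Genes of seed oil breakdown stood higher in albino seedlings at 6 days. Of 14 genes of fatty acid oxidation, the glyoxylate cycle and gluconeogenesis, 12 were higher and 1 lower (23.4% and 20.1% of all genes), with a median of 1.13; under the common sum 13 were higher and 1 lower. ICL (AT3G21720, chr3:7652487-7656053), isocitrate lyase, which with malate synthase defines the glyoxylate cycle, stood at 10.2, 12.04 and 14.3 in wild-type seedlings and at 222, 243 and 223 in albino seedlings and rose by 4.14 ± 0.35 (adjusted p = 1.70e-05). Malate synthase MLS stood at 5.50, 9.50 and 7.17 against 49.6, 57.7 and 42.1 and rose by 2.62 ± 0.36 (adjusted p = 0.000288). For both, every albino library lay above every wild-type library. The exception was PMDH2, a peroxisomal malate dehydrogenase that also serves photorespiration, at 345, 254 and 229.7 against 61.5, 49.9 and 60.01 (-2.24 ± 0.17, adjusted p = 9.94e-06). The lipase SDP1, which releases fatty acids from oil bodies, did not pass (-0.12 ± 0.09, adjusted p = 0.319; named after its value was seen). Against green 2cpab seedlings, for which 7131 of all genes were called (36.1%; 18.5% higher and 17.7% lower), the list counts were 12 higher and 1 lower.

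Increases outnumbered decreases in the seed storage, abscisic acid and flavonoid lists. Of 9 tested seed storage and oil-body genes 4 were higher, 0 lower and 5 did not pass (6 higher under the common sum), with the cruciferin CRA1 at 1.94, 7.99 and 4.46 against 43.7, 34.3 and 17.9 (2.56 ± 0.39, adjusted p = 0.000587), cruciferin CRC at 0, 2.25 and 0.343 against 31.7, 4.77 and 5.68 (2.72 ± 0.66, adjusted p = 0.00811) and oleosin OLEO2 (2.08 ± 0.28, adjusted p = 0.000294). Albino replicate 1 held the highest level of all 3, and CRC was at 1.92 without it. Against green 2cpab seedlings 0 of the 9 were higher and 1 lower (median 0.01), and 5 were higher in green than in wild-type seedlings. Of 15 genes of abscisic acid and cold responses 10 were higher, 2 lower and 3 did not pass (12 higher and 2 lower under the common sum), with the dehydrin RAB18 at 3.59, 4.11 and 5.60 against 41.1, 32.8 and 28.0 (2.69 ± 0.40, adjusted p = 0.000476). The lower pair was CBF2 (-2.94 ± 0.51, adjusted p = 0.0013) and CBF1 (-2.54 ± 0.40, adjusted p = 0.000679), transcription factors at the head of the cold response, and albino replicate 3 held the most RNA of both among albino libraries; without it CBF2 was at -3.67. Of 17 flavonoid and anthocyanin genes 15 were higher and 0 lower, with a median of 1.25, and 17 were higher under the common sum. DFR (AT5G42800, chr5:17164093-17166032), which commits flavonoids to anthocyanin, stood at 7.90, 3.72 and 2.40 in wild-type seedlings and at 42.8, 31.6 and 15 in albino seedlings and rose by 2.44 ± 0.42 (adjusted p = 0.00124). The anthocyanin carrier GSTF12 rose by 2.45 ± 0.27 (adjusted p = 7.55e-05) and LDOX, the next step after DFR, by 2.11 ± 0.37 (adjusted p = 0.00142). In all 3 the highest value was that of albino replicate 1 and the lowest albino value that of replicate 3, which was still above the highest wild-type library.

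Sugar, starch and nitrogen genes moved in both directions. Of 16 starch genes 7 were lower and 4 higher, against 6 and 8 under the common sum. GPT2 (AT1G61800, chr1:22824414-22826902), a plastid glucose-6-phosphate transporter that is induced by sugar, stood at 0.659, 1.61 and 0.945 against 21.7, 21.3 and 14.6 and rose by 3.29 ± 0.32 (adjusted p = 3.35e-05). It was far above the wild type in every albino library. The beta-amylase BAM3 (-2.13 ± 0.23, adjusted p = 7.09e-05) and APL1, the leaf form of the large subunit of ADP-glucose pyrophosphorylase (-2.01 ± 0.14, adjusted p = 6.08e-06), were lower. Of 12 carbon starvation genes 5 were higher and 4 lower (8 and 3 under the common sum), with the branched-chain transaminase BCAT2 higher (1.84 ± 0.29, adjusted p = 0.000772) and EXL1, an exordium-like protein, at 275, 219.6 and 210.4 against 28.1, 16.4 and 18.7 lower (-3.45 ± 0.19, adjusted p = 2.39e-06). BZIP63, a transcription factor of the energy response, was lower (-1.51 ± 0.15, adjusted p = 3.25e-05). The wild-type and albino libraries were apart for all of these genes. Of 11 nitrogen genes 8 were lower and 2 higher (6 and 2 under the common sum). GLN2, the plastid glutamine synthetase that reassimilates photorespiratory ammonium, stood at 1512, 1532 and 1268 against 244, 204 and 204 (-2.72 ± 0.18, adjusted p = 4.43e-06), and ferredoxin-dependent glutamate synthase GLU1 (-1.75 ± 0.15, adjusted p = 1.94e-05) and the nitrate transporter NRT1.5 (-1.81 ± 0.13, adjusted p = 8.07e-06) were lower too. The higher pair was the glutamate dehydrogenases GDH1 and GDH2 (named after their values were seen); the count went to 1 without wild-type replicate 1, wild-type replicate 3 or albino replicate 3. Of 10 phosphate starvation genes 5 were higher and 3 lower (6 and 0 under the common sum), with SPX1, a sensor protein of phosphate status, at 5.11, 2.05 and 5.25 against 23.51, 28.1 and 35.3 (2.60 ± 0.32, adjusted p = 0.000157) and the phosphatase PAP17 at 2.02 ± 0.19 (adjusted p = 3.13e-05). SPX3 was listed at 0 in all wild-type libraries and at 1.16, 1.67 and 1.797 in albino ones. Wild-type and albino levels of SPX1 did not overlap. The lower count of that list went to 1 without albino replicate 1.

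Enzymes that remove reactive oxygen moved in both directions. Superoxide dismutases convert superoxide into hydrogen peroxide, and plants trade the iron and the copper/zinc forms against each other with copper supply. FSD1 (AT4G25100, chr4:12884300-12887011), an iron form, stood at 720.4, 437 and 534 in wild-type seedlings and at 102, 90.5 and 89.9 in albino seedlings and fell by 2.54 ± 0.17 (adjusted p = 5.58e-06). CSD1 (AT1G08830, chr1:2827060-2829315), the cytosolic copper/zinc form, stood at 63.2, 138 and 88.5 against 443, 463 and 538 and rose by 2.37 ± 0.23 (adjusted p = 3.78e-05). No library of one group reached the values of the other for either gene. The plastid copper/zinc form CSD2, named after its value was seen, was higher as well (1.79 ± 0.16, adjusted p = 1.96e-05). The iron forms did not move together: FSD3 was called higher and FSD2 was not called. These members of the plastid transcription list were named after their values were seen. Of all 12 genes of the reactive oxygen list 5 were higher and 5 lower (6 and 5 under the common sum). Its catalases split as well, with CAT1 and CAT3 higher and CAT2 lower (named after their values were seen). BAP1, a marker of singlet oxygen signalling, was lower (-2.94 ± 0.35, adjusted p = 0.000122). The 3 ferritin genes, whose products store iron in plastids, were lower: FER1 stood at 395, 320.4 and 283 against 83.9, 84.9 and 79.7 (-1.98 ± 0.16, adjusted p = 1.49e-05), FER3 fell by 2.17 ± 0.15 (adjusted p = 6.82e-06) and FER4 fell by 1.197 ± 0.14 (adjusted p = 9.97e-05). Against green 2cpab seedlings, FER3 was lower (-0.98, adjusted p = 0.000941). FER1 differed by -0.37 (adjusted p = 0.112) and FER4 by 0.21 (adjusted p = 0.263), neither of which passed. All 3 ferritin genes were also lower in green than in wild-type seedlings, against 5.16% of all genes.

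Iron uptake genes were lower together with the ferritins. Of 22 genes of the iron deficiency response 16 were lower and 1 higher, with a median of -1.19; under the common sum 13 were lower and 2 higher. CYP82C4 (AT4G31940, chr4:15451988-15454224), which makes a coumarin secreted by iron-deficient roots, stood at 27.7, 54.1 and 44.9 against 0.668, 1.16 and 0.763 and fell by 4.49 ± 0.22 (adjusted p = 1.77e-06). The oxygenase AT3G12900 was at 5.96, 10.01 and 9.60 in the wild type and listed at 0 in all 3 albino libraries. FRO2, the ferric reductase of the root surface, fell by 2.96 ± 0.30 (adjusted p = 4.57e-05). The higher member was the nicotianamine synthase NAS4 (0.80 ± 0.17, adjusted p = 0.00341), named after its value was seen. Many of these genes act in roots; the summed level of the root marker list was 54.9 to 61.2 in albino and 38.2 to 49.7 in wild-type libraries, and its part in the result was not tested. Against green 2cpab seedlings 20 of the 22 were lower and 0 higher. In green against wild-type seedlings, 12 of the 22 were higher and 0 lower (median 1.235), against 3.71% and 5.16% of all genes.

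Detoxification and mitochondrial stress genes were more often higher than lower, against 23.4% higher and 20.1% lower over all genes. Of 41 tested glutathione transferases, which couple glutathione to reactive compounds, 18 were higher (43.9%) and 7 lower (29 and 3 under the common sum). GSTF6 (AT1G02930, chr1:661088-662475) stood at 17.5, 22.4 and 21.2 against 187, 218 and 193 and rose by 3.23 ± 0.14 (adjusted p = 1.38e-06). GSTU4 rose by 2.60 ± 0.16 (adjusted p = 4.00e-06), whereas GSTL1 fell by 2.57 ± 0.21 (adjusted p = 1.53e-05). Of 46 UDP-glycosyltransferases, which add sugars to small molecules, 22 were higher (47.8%) and 2 lower (35 and 0 under the common sum), with UGT74E2 at 2.11, 2.77 and 2.11 against 47.2, 42.5 and 34.2 (3.66 ± 0.38, adjusted p = 4.97e-05) and UGT87A2 at 1.61 ± 0.15 (adjusted p = 2.87e-05). UGT74E2 also belongs to a list of genes that respond to mitochondrial dysfunction, of which 7 of 8 were higher and 1 lower under both scalings. In green against wild-type seedlings 4 of the 8 were higher and 0 lower (median 1.01), against 3.71% and 5.16% of all genes. In albino against green seedlings 4 were higher and 1 lower. In that list UPOX (AT2G21640, chr2:9254378-9255743), annotated as a marker of the oxidative stress response, stood at 5.57, 12.3 and 7.75 against 66.9, 65.2 and 78.6 (2.96 ± 0.22, adjusted p = 7.90e-06), and the alternative NAD(P)H dehydrogenase NDB4 rose by 2.04 ± 0.25 (adjusted p = 0.000161). The lower member was OM66 (-1.12 ± 0.15, adjusted p = 0.000287), named after its value was seen.

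The listed rapidly induced stress genes were lower as well. Of 12 genes that respond within minutes to touch, wounding or other stimuli, 12 were lower, also under the common sum and against green 2cpab seedlings, with a median of -2.62. WRKY40 (AT1G80840, chr1:30383561-30385499), a transcription factor of defence responses, stood at 376, 349.9 and 400.3 in wild-type seedlings and at 11.8, 11.7 and 25.8 in albino seedlings and fell by 4.53 ± 0.30 (adjusted p = 4.86e-06). The calmodulin-like proteins CML38, at 201, 159 and 196 against 10.9, 7.67 and 19.6 (-3.85 ± 0.30, adjusted p = 1.00e-05), and CML39 (-3.07 ± 0.44, adjusted p = 0.00039) were lower too. In all 3 genes the highest albino value was that of replicate 3, and it lay below every wild-type library. Albino replicate 3 also held the most RNA of RRTF1 (AT4G34410, chr4:16451876-16453260), a redox-responsive transcription factor at 250.1, 191 and 215 against 1.89, 2.59 and 18.1 (-5.23 ± 0.59, adjusted p = 8.68e-05), and of DDF1, a DREB-type transcription factor, at 69.4, 67.2 and 86.8 against 0.337, 0.364 and 4.16 (-5.15 ± 0.47, adjusted p = 2.40e-05). Without albino replicate 3, RRTF1 was at -6.08, DDF1 at -5.80 and the touch list again had 12 genes lower.

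The 250 bases before WRKY40 (chr1:30383311-30383560 on the plus strand) and before ICL (chr3:7656054-7656303 on the minus strand) are shown as examples of a rapid stress gene that was lower and a glyoxylate gene that was higher, with capitals for the same motifs on either strand.
WRKY40: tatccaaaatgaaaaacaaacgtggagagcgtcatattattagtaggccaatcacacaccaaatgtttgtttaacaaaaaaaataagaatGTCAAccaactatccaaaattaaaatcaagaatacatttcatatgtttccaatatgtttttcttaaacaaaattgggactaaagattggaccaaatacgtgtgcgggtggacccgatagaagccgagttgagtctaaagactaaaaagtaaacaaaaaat
ICL: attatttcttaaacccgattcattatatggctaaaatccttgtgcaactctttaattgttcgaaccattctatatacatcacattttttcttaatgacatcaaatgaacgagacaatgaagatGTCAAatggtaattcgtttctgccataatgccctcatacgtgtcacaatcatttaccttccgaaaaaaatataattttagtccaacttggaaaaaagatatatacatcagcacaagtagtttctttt
Each has 1 match, a W-box core, the short motif bound by WRKY factors. That core is common: it was present in 6 of 12 (50%) of the touch list, 6 of 14 (42.9%) of the oil breakdown list and 8801 of 19624 (44.8%) of all tested nuclear genes. The rapid stress response element was present in 1 of 12 (8.33%) of the touch list, 79 of 1517 (5.21%) of genes at least 2-fold lower, 21 of 887 (2.37%) of genes at least 2-fold higher and 563 of 19624 (2.87%) of all. The evening element was present in 2.44% of all. None of these shares was tested.

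Most genes of the jasmonate list were lower, whereas the 28 tested genes with the process note of response to jasmonic acid had 9 higher and 9 lower (median 0.13). Of 20 tested genes of the list 14 were lower and 5 higher, with a median of -1.46 (13 and 6 under the common sum). JAZ8 (AT1G30135, chr1:10596352-10597341), a repressor protein that jasmonate itself induces, stood at 29.7, 20.9 and 55.0 against 0, 0.275 and 1.28 (-4.56 ± 0.46, adjusted p = 4.23e-05) and JAZ7 at 65.8, 34.9 and 78.8 against 1.59, 1.28 and 2.87 (-4.34 ± 0.39, adjusted p = 2.20e-05). The lipoxygenase LOX4 fell by 3.90 ± 0.29 (adjusted p = 8.12e-06), and CYP94B3, a cytochrome P450 that inactivates jasmonoyl-isoleucine, fell by 3.72 ± 0.34 (adjusted p = 2.55e-05). The higher members, named after their values were seen, were the vegetative storage proteins VSP1 and VSP2, the lipoxygenase LOX2 and the allene oxide cyclases AOC1 and AOC2, with VSP2 at 4.72, 8.56 and 5.06 against 52.3, 42.8 and 45.6 (2.79 ± 0.18, adjusted p = 4.43e-06). Their count went to 3 without albino replicate 1 or albino replicate 2. Against green 2cpab seedlings 10 members were lower and 4 higher. In green against wild-type seedlings, 12 of the 20 were lower and 1 higher (median -0.97), against 5.16% and 3.71% of all genes.

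Transcription factors and receptors of stress and immunity moved as follows. Of 74 genes of the ERF and AP2 type 28 were lower and 18 higher (23 and 28 under the common sum), and AT1G33760 at 42.4, 36.2 and 36.9 against 0.428, 0.354 and 0.699 (-4.73 ± 0.18, adjusted p = 1.21e-06) and AT5G52020 (-4.06 ± 0.32, adjusted p = 1.07e-05) were among the larger decreases. Of 48 WRKY genes 12 were lower (25%) and 13 higher (27.1%), near the shares of all genes (9 and 29 under the common sum), with WRKY33 at 249, 238 and 261 against 30.3, 32.6 and 51.9 (-2.71 ± 0.22, adjusted p = 1.45e-05) and WRKY22 at -2.61 ± 0.20 (adjusted p = 9.03e-06). Of 93 genes for intracellular immune receptors with nucleotide-binding and leucine-rich repeat domains 51 were lower and 4 higher, with a median of -0.42; under the common sum 32 were lower and 14 higher. The receptor gene AT5G41740 stood at 75.1, 54.0 and 71.3 against 5.60, 4.27 and 6.16 (-3.42 ± 0.24, adjusted p = 6.09e-06), and the receptor genes AT4G19530 (-3.21 ± 0.27, adjusted p = 1.73e-05) and AT4G19520 (-2.04 ± 0.29, adjusted p = 0.000384) were lower too. Of 75 receptor-like kinases 25 were lower and 8 higher, but 12 and 38 under the common sum, so their direction turned with the scaling; PERK1 was lower under both (-1.39 ± 0.08, adjusted p = 2.94e-06; -0.92 under the common sum). The higher count of receptor-like kinases went to 5 without albino replicate 1 or albino replicate 2.

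Salicylate defence genes moved in both directions. Of 13 tested genes 6 were higher and 2 lower (7 and 1 under the common sum). Beside PR2, PBS3, an enzyme of salicylate synthesis, stood at 0.158, 0.0814 and 0.251 against 4.34, 4.83 and 4.82 and rose by 2.28 ± 0.14 (adjusted p = 3.55e-06), while the salicylate receptor NPR3 stood at 53.0, 37.2 and 57.6 against 8.56, 8.88 and 9.58 and fell by 2.31 ± 0.22 (adjusted p = 3.13e-05). The lower count went to 4 without albino replicate 3 and to 1 when any of wild-type replicates 1 and 3 or albino replicates 1 and 2 was left out. CYP707A3, which breaks down abscisic acid, was the second largest decrease among 141 cytochromes P450, at 147, 108 and 117 against 5.21, 4.54 and 9.01 (-4.15 ± 0.23, adjusted p = 2.52e-06). Of that family 45 were higher (31.9%) and 30 lower (21.3%), against 23.4% and 20.1% of all genes (87 and 21 under the common sum).

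**Figure D5:**
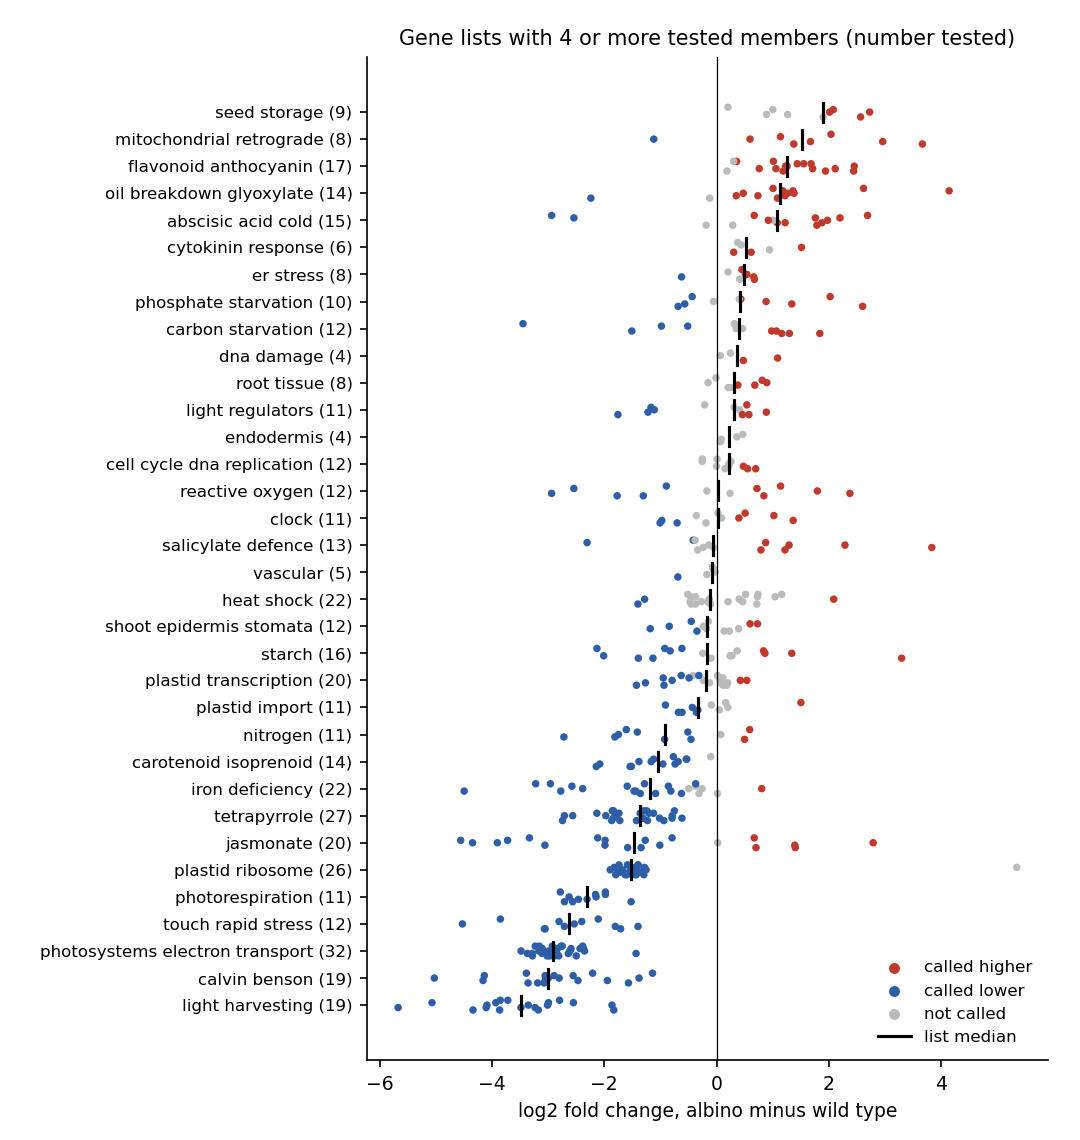
Log2 fold changes of albino against wild-type seedlings for every tested gene of each list with at least 4 tested members, with called genes in red (higher) or blue (lower), other genes in grey and a black bar at the list median. Medians run from -3.48 for light harvesting to 1.89 for seed storage.

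Heat-shock genes, which were higher in green 2cpab than in wild-type seedlings, mostly did not pass the test in albino ones. Of 22 tested genes 1 was higher and 2 lower against the wild type, with a median of -0.12; under the common sum 4 were higher and 0 lower. HSP15.7, a small heat-shock protein of peroxisomes, stood at 1.61, 1.90 and 2.93 in wild-type seedlings and at 5.65, 7.68 and 38.1 in albino seedlings and rose by 2.08 ± 0.58 (adjusted p = 0.0154); without wild-type replicate 1 it no longer passed (adjusted p = 0.0502). HSP101, a disaggregating chaperone, was at 19.6, 28.6 and 34.5 against 6.23, 5.53 and 23.9 (-1.401 ± 0.51, adjusted p = 0.0491), and the prolyl isomerase ROF2 was at -1.28 ± 0.44 (adjusted p = 0.0381). Neither lower call passed under the common sum (HSP101 -0.97, adjusted p = 0.0902; ROF2 -0.83, adjusted p = 0.0871). Albino replicate 3 held the most RNA of all 3 genes among albino libraries, and without it HSP15.7 was at 1.296 and HSP101 at -2.02. Without it 5 genes were lower; there were 0 when any of wild-type replicates 2 and 3 or albino replicates 1 and 2 was left out, and 1 when wild-type replicate 1, green replicate 2 or green replicate 3 was left out. The groups overlapped for HSP101 and did not for the other 2 genes. Side by side, 22 of the 22 were higher in green than in wild-type seedlings (median 3.67, against 3.71% of all genes higher, 5.16% lower and 8.87% called in either direction) and 22 were lower in albino than in green seedlings (median -3.65); both comparisons share the green libraries. Of 8 endoplasmic reticulum stress genes 5 were higher and 1 lower (6 and 0 under the common sum): the chaperone BIP2 stood at 75.3, 117 and 95.3 against 145, 154 and 151 (0.66 ± 0.14, adjusted p = 0.00461) and BIP1 rose by 0.67 ± 0.15 (adjusted p = 0.00623), whereas the transcription factor BZIP60 was lower (-0.62 ± 0.17, adjusted p = 0.0157). BZIP60 was not called without albino replicate 1 or 2 or wild-type replicate 1, nor under the common sum (-0.16, adjusted p = 0.343; over all alternatives 0.00352 to 0.363).

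Cell wall families differed in their shares of higher and lower calls, and some were near the shares of all genes. Of 20 tested expansins, which loosen walls during growth, 13 were higher and 3 lower (15 and 1 under the common sum). EXPA10 (AT1G26770, chr1:9259432-9261313) stood at 7.95, 7.94 and 6.42 against 84.7, 85.03 and 98.1 and rose by 3.42 ± 0.15 (adjusted p = 1.38e-06), whereas EXPA16 at 10.4, 9.74 and 12.8 against 1.35, 1.53 and 1.16 fell by 2.35 ± 0.11 (adjusted p = 1.77e-06). Of 26 xyloglucan endotransglucosylases, which cut and rejoin wall polymers, 5 were higher (19.2%) and 8 lower (30.8%), or 10 and 2 under the common sum. XTH32 (1.46 ± 0.12, adjusted p = 1.76e-05) and XTH19 (1.06 ± 0.18, adjusted p = 0.00111) were higher. The lowest fold change of that family was -1.08, and XTH6 led the lower calls (-1.31 to -0.64 over left-out libraries). Of 147 genes annotated as extensin or proline-rich, 27 were higher (18.4%) and 36 lower (24.5%), or 73 and 24 under the common sum. These shares are near the 23.4% and 20.1% of all genes. AT3G16670 was at 61.8, 75.8 and 85.3 against 4.76, 6.91 and 5.13 (-3.51 ± 0.24, adjusted p = 5.56e-06). The groups were apart for EXPA10, EXPA16, XTH32, XTH19 and AT3G16670. NDR1, which that annotation also covers and which is known for disease resistance, fell by 2.89 ± 0.18 (adjusted p = 3.66e-06). Of 56 class III peroxidases 18 were higher (32.1%) and 15 lower (26.8%), against 23.4% and 20.1% of all genes (32 and 11 under the common sum), with PRX52 (2.22 ± 0.16, adjusted p = 7.96e-06) at the upper and AT5G19890 (-2.08 ± 0.32, adjusted p = 0.000587) at the lower end. Of 22 aquaporins 7 were higher (31.8%) and 5 lower (22.7%; 17 and 1 under the common sum); TIP3;1, the vacuolar water channel of seeds, stood at 1.101, 1.75 and 1.46 against 8.61, 7.38 and 4.14 (1.62 ± 0.25, adjusted p = 0.000624) and TIP2;3 at 20.2, 39.5 and 21.0 against 61.5, 85.7 and 79.5 (1.51 ± 0.23, adjusted p = 0.00056).

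Hormone response genes of auxin were lower in part. Of 19 AUX/IAA genes, early auxin targets that repress auxin signalling, 9 were lower and 0 higher, but 2 lower and 5 higher under the common sum, and the lower count was 5 without albino replicate 1. IAA19 stood at 17.7, 24.1 and 17.43 against 4.21, 4.41 and 4.47 and was lower under both scalings (-1.94 ± 0.15, adjusted p = 1.10e-05); IAA6 was at 1.87, 2.09 and 1.14 in the wild type and listed at 0 in every albino library. Of 52 SAUR genes, small auxin-induced growth genes, 16 were higher (30.8%, against 23.4% of all genes) and 11 lower, or 26 and 8 under the common sum, with AT3G09870 at 9.82, 8.24 and 9.13 against 0.437, 0.179 and 0.399 (-2.91 ± 0.15, adjusted p = 1.99e-06) and AT2G46690 at 5.53, 5.98 and 7.90 against 25.5, 24.6 and 23.8 (1.79 ± 0.13, adjusted p = 8.07e-06). The groups did not overlap for either. Of 6 cytokinin response regulators 3 were higher and 0 lower (6 and 0 under the common sum), with ARR6 at 3.32, 2.35 and 7.63 against 14.3, 11.9 and 13.6 (1.51 ± 0.28, adjusted p = 0.00168). Of 11 clock genes 4 were higher and 3 lower (6 and 1 under the common sum): PRR5 (1.36 ± 0.24, adjusted p = 0.00131) and ELF4 (1.02 ± 0.13, adjusted p = 0.000208) were higher, and the morning factor CCA1 was lower (-1.01 ± 0.27, adjusted p = 0.0123). Those clock counts went to 2 higher and 0 lower without albino replicate 2, and to 2 higher without wild-type replicate 1 or wild-type replicate 3.

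Changes in large housekeeping families were mostly small. Of 34 proteasome genes 16 were higher and 0 lower with a median of 0.26, and 34 were higher under the common sum with a median of 0.70, led by the activator PA200 (0.68 ± 0.11, adjusted p = 0.00081) and the core subunit PAA2 at 38.8, 46.1 and 44.5 against 63.2, 65.3 and 70.0 (0.61 ± 0.09, adjusted p = 0.000423). Of 201 pentatricopeptide genes, mostly RNA-binding proteins of organelles, 38 were higher and 19 lower (137 and 9 under the common sum); the largest change was AT5G13770 at 69.3, 44.2 and 44.9 against 10.2, 8.44 and 9.79 (-2.33 ± 0.19, adjusted p = 1.40e-05). The higher count was 17 without albino replicate 1 or albino replicate 2, and the lower count 12 without wild-type replicate 1. Of 40 histone genes 7 were higher (17.5%) and 0 lower; the linker histone HIS1-3 (AT2G18050, chr2:7845923-7847031), known to be induced by drought and abscisic acid, stood at 6.35, 10.4 and 3.57 against 52.9, 46.1 and 54.4 and rose by 2.84 ± 0.31 (adjusted p = 6.54e-05). The histone count was 4 without wild-type replicate 1 or 3 and 11 without wild-type replicate 2, and under the common sum 39 were higher. Of 12 genes of the cell cycle and DNA replication 3 were higher (25%, near the 23.4% of all genes) and 0 lower, or 10 and 0 under the common sum, with the ribonucleotide reductase RNR1 at 18.6, 18.5 and 16.8 against 33.04, 32.1 and 24.6 (0.69 ± 0.12, adjusted p = 0.00131) and cyclin CYCB1;1 at 0.55 ± 0.10 (adjusted p = 0.00142). The count of higher genes was 5, with 1 lower, without albino replicate 3. Of 4 DNA damage genes 2 were higher (4 under the common sum), PARP2 (1.09 ± 0.10, adjusted p = 2.50e-05) and SMR7 (0.48 ± 0.17, adjusted p = 0.0476); SMR7 was the weaker, and the count was 1 without any single wild-type library other than replicate 2, any albino library or green replicate 1. Of 6 tested subunits of the vacuolar proton pump 1 was higher (VHA-C3, 0.32 ± 0.09, adjusted p = 0.0148), 2 without wild-type replicate 2, 0 without albino replicate 2 and 6 under the common sum.

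The most abundant albino transcript was PYK10, a beta-glucosidase of endoplasmic reticulum bodies that is abundant in roots and seedlings, at 2849 ± 103 against 1489 ± 14.9 in the wild type, where it ranked 36th (SD, n = 3 each). Its partner PBP1 was at 1135 ± 63.5 against 698.8 ± 110.3. GRP3S, a glycine-rich wall protein, was at 1299 ± 156 against 287 ± 76.4 and moved from rank 317 to rank 5, and LP1, a lipid transfer protein, was at 1144 ± 202 against 428 ± 88.1. These genes were taken from the 10 most abundant in albino libraries after their values were seen. Of 8 root marker genes 4 were higher and 0 lower, with summed levels of 54.9 to 61.2 in albino and 38.2 to 49.7 in wild-type libraries and 7 higher under the common sum; the count was 2 without albino replicate 2 or albino replicate 3. WOX5 of the root stem cell niche rose by 0.81 ± 0.15 (adjusted p = 0.00178) and the root-hair expansins EXPA18 and EXPA7 were at 0.89 ± 0.25 (adjusted p = 0.0149) and 0.68 ± 0.21 (adjusted p = 0.0247). The 4 endodermis markers did not pass (sums 57.2 to 65.7 against 41.3 to 82.4), with CASP1 at 0.07 ± 0.17 (adjusted p = 0.774); 1 passed without wild-type replicate 2 or albino replicate 1, and under the common sum 3 were called higher, among them CASP1 (0.53, adjusted p = 0.0200). Of 12 markers of shoot epidermis and stomata 2 were higher and 4 lower, or 6 and 2 under the common sum (sums 213 to 232 against 227 to 295); the guard cell genes KAT1 (-1.18 ± 0.13, adjusted p = 8.41e-05) and FAMA (-0.84 ± 0.10, adjusted p = 0.000102) were lower, and the count of lower genes was 2 without albino replicate 1 or 2 or wild-type replicate 2, and that of higher genes 1 without wild-type replicate 3 or albino replicate 1. Of 5 vascular markers 1 was lower, the phloem sucrose carrier SUC2 (-0.69 ± 0.15, adjusted p = 0.00528), which was not called under the common sum (-0.23, adjusted p = 0.136). Of the shoot meristem genes, KNAT1 was higher (0.48 ± 0.12, adjusted p = 0.0107), STM did not pass (0.29 ± 0.15, adjusted p = 0.134), and 2 others were below the filter; under the common sum both tested genes were higher. The part of tissue proportions in the other results was not tested.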

How the data were processed

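RNA of whole seedlings was sequenced in 9 libraries, 3 per group, and grouped by the labels. The submitters' processing notes name FastQC, HISAT2, StringTie and the build TAIR10, without versions. The deposited table gives log2 values for 32833 genes; no header states how they were made, and per the values themselves the authors deposited log2(FPKM times a library factor + 1), since 81.8% to 86.0% of values between 0.01 and 1 fell on the 6-decimal grid that FPKM takes. Counts are not in the table, so no count test was run and precision is known only from the spread between libraries. Of the genes, 32548 matched the RefSeq TAIR10.1 annotation by ID, and 133 plastid and 152 mitochondrial codes are used as codes.

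Genes that reached a scaled FPKM of 1 in 3 or more libraries were fitted together on log2(scaled FPKM + 1) with limma 3.58.1 in R 4.3.3 (trend, all 3 groups sharing 1 estimate of the spread), and p-values were adjusted by Benjamini-Hochberg over all tested genes. Shares were compared by exact permutation tests in scipy 1.17.1 (Python 3.11.15). The genes named are the 12 largest changes in each direction among called genes whose groups did not overlap and whose higher mean was at least 5, plus up to 3 per list or family by the size of the change; others are marked. The members, lists and families were chosen with earlier results of these data known, and the wording that selects aquaporins and histones from the annotation was corrected after results had been seen. The use of strand in counting is not given in the sources used here, so overlapping genes are uncertain: among those named, ENDO2, AT5G55450, GUN4, TIC20-I, FER1 and APL1 overlap another gene over at least 50% of their length. Alternatives were other scalings, pseudocounts, filters and fits, and leaving out each library. The limma fit was tested on simulated data. The values of 1 plastid ribosome gene and of a transcript that overlaps it are not reported here.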

Additional observations from a re-analysis of the deposited data

How the results depend on the processing

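Over 21 other settings, 158 of the 176 named genes that were called kept their call and direction in each that held them, and 22 of all 182 named genes lost a call or turned in at least 1. The stricter filter held 168 of the 182. Most named genes were picked for large changes, so these counts do not speak for all called genes. Against 4613 higher and 3968 lower genes, scaling to a common sum gave 12255 and 2109, scaling to the sum of nuclear genes 12358 and 2091, and a minimum of 2-fold 912 and 1527. Under median-of-ratios scaling they were 3771 and 4403. For albino against green seedlings the common sum gave 11916 and 1841. Leaving out 1 library gave 3259 to 4741 higher and 3321 to 4011 lower genes against the wild type, and 2413 (without albino replicate 2) to 3884 higher and 2789 to 3588 lower against green. The sign turned for cpHSC70-1 (0.084 with the common sum, 0.091 with the nuclear sum), for GUN1 (0.25 and 0.26) and, without wild-type replicate 1, for CASP1 (-0.14, over left-out libraries -0.14 to 0.27) and CASP2 (-0.17, range -0.17 to 0.28); the cause was not tested.

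Libraries with the same replicate number had deviations from their group means that correlated at -0.147 to 0.281, and those with different numbers from -0.355 to 0.151; not every same-number pair was above 0.1, so the numbers were not taken to pair the libraries; with the replicate number as a block 4611 genes were higher and 4010 lower. Absolute depth is unknown, which limits what can be said of genes near 0.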

Other observations

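Outside the lists described above, the process notes of the annotation, of which 164 had at least 15 tested genes, gave further groups, chosen after their values were seen and to be read against 23.4% higher and 20.1% lower over all genes. Genes noted for response to far red light had 16 of 18 lower and 1 higher, with a median log2 fold change of -3.29. Genes noted for response to chitin, a fungal wall signal, had 30 of 52 lower and 12 higher, those for innate immune response 40 of 72 lower and 4 higher and those for apoptosis 46 of 95 lower and 4 higher. The median of the last group was -0.33 and moved to 0.0035 under the common sum. Fatty acid synthesis, which takes place in plastids, had 25 of 43 lower and 2 higher, and its median of -0.38 turned to 0.07 under the common sum, whereas fatty acid beta-oxidation had 11 of 17 higher and 0 lower. Toxin breakdown had 9 of 15 higher and 3 lower, response to gibberellin 11 of 19 higher and 3 lower and cell proliferation 11 of 21 higher and 1 lower. The terms share members with each other and with the lists, and none of these shares was tested.

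By type of transcript, 10 of 27 tested microRNA precursors were higher and 2 lower, 6 of 83 small nucleolar RNAs were higher and 0 lower, and 52 of 346 long noncoding RNAs were higher and 53 lower, against 4474 and 3884 of 19035 protein-coding genes.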
